A study of Homo sapiens with 4 samples.

Results

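The transcripts of the translation initiation and elongation factors were examined in RNA immunoprecipitation sequencing (RIP-seq) of MDA-MB-231, a human triple negative breast cancer cell line. The members were chosen by gene symbol: all listed transcripts of genes whose symbols begin with EIF and a digit from 1 to 6, or with EEF and 1 or 2, without transcripts annotated as pseudogenes. This gave 450 of 75165 listed transcripts, from 70 of 20298 genes. Of the 70 genes, 68 are protein-coding and 2 are lncRNA genes that start beside a factor gene. The cells had been transduced with a lentiviral vector for 3x flag-YTHDC1, a tagged form of the nuclear reader of N6-methyladenosine (m6A), selected with puromycin, UV-crosslinked and lysed as nuclei. There were 2 libraries of RNA recovered with the anti-flag antibody (IP-YTHDC1) and 2 input libraries of RNA from the same kind of lysate, described in the labels as biological replicates. All 4 libraries come from cells that carry the vector.

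The value of each transcript is the authors' mean normalized count, a single mean over the IP and input libraries together. It carries no replicate spread and no depth per library, so no error is given with it, and no difference between IP and input is reported. Reads were assigned to transcripts by a statistical estimate, and the values are not divided by transcript length. Values are therefore described mainly within a gene, as percents of the gene total, which is the sum over the listed transcripts of the gene. A longer transcript of a gene collects more reads, and this holds for those percents too. Over all transcripts the values summed to 33361205, and the translation factors made up 1.76% of that sum. Of the cell line's markers, VIM, CD44, AXL and MSN had gene totals from 14306 to 80785. The receptor genes ESR1 and PGR had no listed transcript, and the epithelial genes CDH1 and EPCAM were at 10.0 and 78.3. ERBB2, which had been expected to be low, was at 4303, above the median of 588 over all protein-coding genes. YTHDC1, the gene carried by the vector, had a total of 55488.

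Translation begins when the cap of an mRNA is bound by eIF4E, which works with the scaffold eIF4G and the helicase eIF4A, while eIF2 brings the initiator tRNA to the small ribosomal subunit and eIF3 holds the parts together. eIF2B recharges eIF2 with GTP, and stress kinases block this step by phosphorylating eIF2 alpha. During elongation, eEF1A delivers aminoacyl-tRNA and eEF2 moves the ribosome along the mRNA. Many mRNAs of the translation machinery begin with a C followed by a run of pyrimidines, the 5′ terminal oligopyrimidine (TOP) tract, through which mTOR signalling controls their translation. Splicing can also yield transcripts of these genes without a full coding sequence, annotated as retained intron, as a target of nonsense-mediated decay (NMD) or as a processed transcript without an open reading frame.

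The first bases of several member genes are shown because the TOP tract is a feature that the choice by symbol did not use. The sequences were taken from RefSeq (GRCh38.p14), run from 10 bases before the listed start to the 20th transcribed base, and have the unbroken run of C and T from the start in capitals:
EEF1A1 (chr6:73521013-73521042, minus strand): cgtgaacgttCTTTTTCgcaacgggtttgc
EEF2 (chr19:3985444-3985473, minus strand): cgtcagcgttCTCTTCCgccgtcgtcgccg
EEF1B2 (chr2:206159885-206159914, plus strand): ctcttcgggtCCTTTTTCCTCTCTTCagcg
EIF4B (chr12:53006446-53006475, plus strand): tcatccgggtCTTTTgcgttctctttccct
EIF4A2 (chr3:186783567-186783596, plus strand): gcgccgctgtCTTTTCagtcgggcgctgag
EIF3D (chr22:36529147-36529176, minus strand): cgcatgtttcCTCTTTTCCTggtttctcaa
EIF3F (chr11:7987327-7987356, plus strand): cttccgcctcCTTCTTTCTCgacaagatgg
EIF3M (chr11:32583821-32583850, plus strand): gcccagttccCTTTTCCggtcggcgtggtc
EIF4E (chr4:98929114-98929143, minus strand): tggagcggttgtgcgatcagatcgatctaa
EIF1 (chr17:41688875-41688904, plus strand): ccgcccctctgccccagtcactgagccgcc

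EIF4E and EIF1 are shown as starts without such a run. EEF1B2 also has a listed start without it (chr2:206159599-206159628, plus strand), which is not shown. The search asked for C at the listed start followed by 4 bases that are each C or T, on the strand of the gene and at that position alone. Of the 70 genes, 55 were matched by symbol to 73 starts, and 13 of the 55 genes (23.6%) had the run at a start. It was present at 17.8% of the 73 starts and at 4.07% of all 35116 starts of the reference. Counted by gene, 7.19% of the 10980 matched protein-coding genes with listed transcripts held it, as did 69.4% of 62 ribosomal protein genes (symbols of RPL or RPS and a number). Besides the 8 genes shown with the run, EIF2A, EIF2D, EIF2S3, EIF2S3B and EIF3K had it. The 15 unmatched genes were EEF1A2, EEF1AKMT1, EEF1AKMT3, EEF1AKNMT, EEF1D, EEF2KMT, EIF2AK1, EIF2S2, EIF3A, EIF3CL, EIF3E, EIF3G, EIF3H, EIF3L and EIF4EBP1. A match describes letters at an annotated start and is not evidence of regulation in these cells.

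Protein-coding transcripts held most of the reads assigned to the factors, although many members by number were of other types. Of the 450 transcripts, 253 (56.2%) were annotated as protein-coding, and these held 91.6% of the family's summed values. Retained-intron transcripts numbered 110 (24.4%) and held 4.96%, and 46 NMD transcripts (10.2%) held 2.14%. The 33 processed transcripts held 1.19%. The percents by number of transcripts are given for the members alone, without the same over all genes. Over all protein-coding genes of the table, coding transcripts held 87.6% of the summed values, retained-intron transcripts 4.16%, NMD transcripts 4.22% and processed transcripts 4.02%. Of the members outside these types, 6 were lncRNA transcripts, 1 was a non-stop decay transcript and 1 was of the TEC type. The median value was 213 for the protein-coding, 41.9 for the retained-intron and 109 for the NMD transcripts. The members ranged from 3.47 to 116693, with 225 transcripts at 100 or more and 49 below 10. Gene totals had a median of 1887 over the 68 protein-coding factor genes, beside 588 over all protein-coding genes of the table, neither of them per length. Of the 70 genes, 3 (EEF1A1, EIF4G1 and EEF2) held 47.8% of the family's sum.

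**Figure D1:**
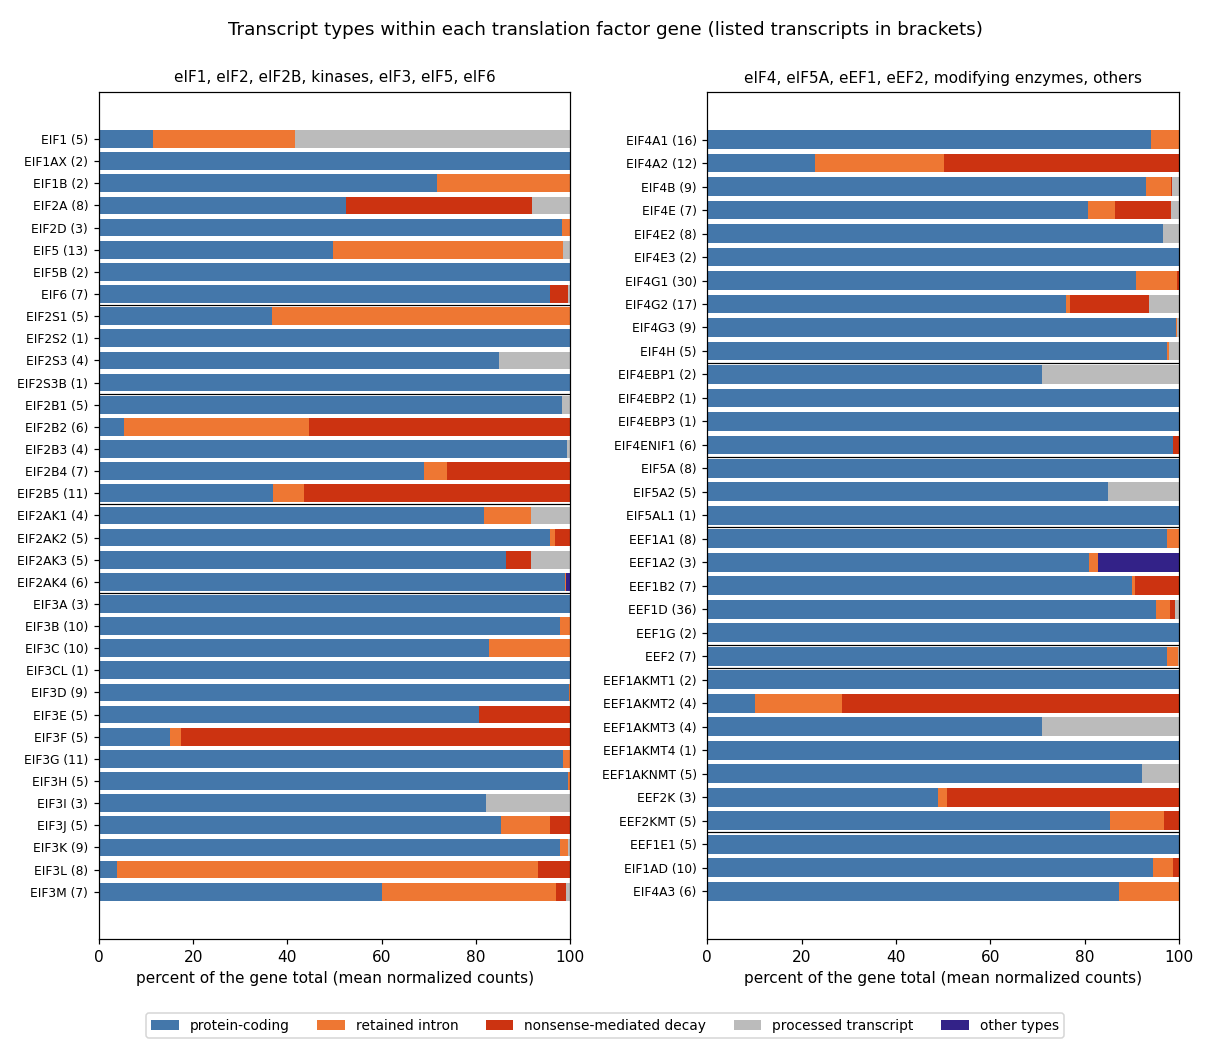
Horizontal bars give the percent of each gene's summed mean normalized counts held by each annotated transcript type, for the 68 protein-coding factor genes; the number of listed transcripts stands in brackets and black lines separate roles. Bars of EEF1A1, EEF2 and EEF1G are nearly all protein-coding, whereas protein-coding transcripts fill 4.0% of EIF3L, 5.3% of EIF2B2 and 11.4% of EIF1.

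Among the elongation factors, the core genes were dominated by a single coding transcript. EEF1A1, the main eEF1A, had 8 listed transcripts and a total of 120561, of which EEF1A1-203 held 96.8%. EEF2 had 7 transcripts and a total of 76325, and EEF2-201 held 96.5% of it. EEF1G, a scaffold subunit of the eEF1B exchange complex, had a total of 30887 with 99.9% in EEF1G-201. The other exchange subunits were spread more widely. EEF1B2 had 60.8% of a total of 5445 in EEF1B2-203 and 9.4% in NMD transcripts. EEF1D, whose alternative splicing gives a short translation factor and a long nuclear form, had 36 listed transcripts, the most of any member. Its leading transcript, EEF1D-201, held 20.7% of a total of 23701, and 17 transcripts were needed to reach 90% of it. EEF1A2, the eEF1A of muscle and neurons, had a total of 1939 with 81.0% in the coding transcript EEF1A2-201 and 17.1% in the family's non-stop decay transcript.

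The enzymes that modify elongation factors, EEF2K and 6 methyltransferase genes, had totals from 34.7 to 2647 and differed in their transcript types. Over all 7 genes, 76.8% of the summed values lay in coding transcripts and 16.4% in NMD transcripts, and without EEF2K these values were 87.3% and 4.02%. In 4 of the 7 genes no NMD transcript was listed. The 5 eEF1 genes had 97.2% of their summed values in coding and 0.42% in NMD transcripts, and 96.7% and 1.24% without EEF1A1, the largest of them. EEF2K, the kinase that inactivates eEF2, had an NMD transcript and a coding transcript at nearly the same value, 640 for EEF2K-204 and 637 for EEF2K-201. EEF1AKMT2, a lysine methyltransferase of eEF1A, had 71.4% of a total of 178 in NMD transcripts, led by EEF1AKMT2-202 at 122 (68.3%), and 10.2% in its coding transcript. EEF1AKMT1 and EEF1AKMT4 were 100% coding, and EEF1AKNMT was 92.2% coding. The totals of the other methyltransferases were 2647 for EEF1AKNMT, 358 for EEF2KMT, 166 for EEF1AKMT4, 65.5 for EEF1AKMT3 and 34.7 for EEF1AKMT1, and in each of them a coding transcript led.

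The factors that act on start codon choice and subunit joining included some of the genes with least coding signal. EIF1, which guards the fidelity of start codon selection, had a total of 5494, and its leading transcript was the processed transcript EIF1-201 at 3207 (58.4%). The retained-intron transcript EIF1-205 was at 1426 (26.0%), and the higher-valued of its 2 coding transcripts, EIF1-207, was at 562 (10.2%). In EIF5, the GTPase-activating protein of eIF2, 48.6% of a total of 3354 lay in retained-intron transcripts. Its leading pair was close, with the retained-intron transcript EIF5-208 at 689 and the coding transcript EIF5-205 at 661. EIF2A, an initiator tRNA binding protein distinct from eIF2, was led by the NMD transcript EIF2A-211 at 197 (36.1% of 547), although its 5 coding transcripts together held 52.3%. By contrast, coding transcripts held 100% of EIF5B and EIF1AX, 98.2% of EIF2D and 95.7% of EIF6. The paralog EIF1B had a total of 97.9, with 28.3% in a retained-intron transcript.

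In the ternary complex and its exchange factor, the subunits of the same complex differed in their transcript types. EIF2S1, the alpha subunit that stress kinases phosphorylate, had 63.3% of a total of 1575 in retained-intron transcripts. The largest was EIF2S1-203 at 760, and the coding transcript with the highest value, EIF2S1-201, was at 314. EIF2S2 (beta) was represented by the coding transcript EIF2S2-201 alone, at 6234. EIF2S3 (gamma) had 84.8% of a total of 1052 in coding transcripts. Of the eIF2B genes, EIF2B2 had the least coding signal, with 5.3% of a total of 1733 in its coding transcript EIF2B2-201 at 91.4, beside 55.5% in NMD and 39.2% in retained-intron transcripts. EIF2B5, the catalytic subunit, was led by the NMD transcript EIF2B5-212 at 1052, and its coding transcript EIF2B5-226 was at 892. In EIF2B4, 68.9% was coding and 26.2% NMD, whereas EIF2B1 and EIF2B3 were 98.2% and 99.2% coding. Over the 5 eIF2B genes together, 35.2% of the summed values lay in NMD transcripts, beside 2.14% over all members. In both sums, genes with large totals weigh most. EEF1A1 and EEF2 had no NMD transcript listed and EIF4G1 had 0.48% in them, and these genes held 47.8% of the family's sum. Among the eIF2B genes, EIF2B5 had 56.5% in NMD transcripts, and EIF2B1 and EIF2B3 had none listed.

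The kinases of eIF2 alpha were each led by a coding transcript. EIF2AK4 (GCN2), which senses uncharged tRNA, had a total of 2940 with 94.0% in EIF2AK4-201. EIF2AK2 (PKR), which senses double-stranded RNA, had 89.7% of 938 in EIF2AK2-201. EIF2AK3 (PERK), the kinase of endoplasmic reticulum stress, had 86.4% of 635 in EIF2AK3-201. EIF2AK1 (HRI), the heme-regulated kinase, had 73.0% of 1835 in EIF2AK1-201 and 10.1% in retained-intron transcripts.

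Most of the 14 eIF3 genes were led by a coding transcript, and the exceptions were EIF3F, EIF3L and EIF3M. EIF3L had a total of 2879, of which the retained-intron transcripts EIF3L-213 and EIF3L-212 held 1782 and 723. Its coding transcript with the highest value, EIF3L-214, was at 81.5, and the value of the leading transcript was 21.9 times that. EIF3F had 82.5% of a total of 4102 in the NMD transcript EIF3F-204 at 3385, beside 623 for its coding transcript EIF3F-209. The pseudogene EIF3FP3, outside the members by the rule, was listed at 793. EIF3M was led by the retained-intron transcript EIF3M-207 at 411, with the coding transcript EIF3M-203 at 334, and coding transcripts together held 60.0%. The remaining genes included EIF3A and EIF3B, core subunits, at totals of 25798 and 20401 with 100% and 97.7% coding. EIF3D, the subunit that can bind the cap itself, was 99.7% coding at 6753, EIF3G was 98.5% coding at 6769, and EIF3H was 99.6% coding at 2376. EIF3I and EIF3K were 82.1% and 97.8% coding at totals of 5187 and 3174. EIF3E had 80.7% coding and 19.3% NMD signal at 1149, and EIF3J, a loosely attached subunit, had 85.2% coding signal at 593. EIF3C was 82.7% coding at 21015, with 16.9% in the retained-intron transcript EIF3C-208. EIF3C and EIF3CL (6614) are near-identical copies, and the division of reads between them is uncertain.

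Among the cap-binding and scanning factors, the helicase paralogs had contrasting transcripts. EIF4A1 had 94.0% of a total of 25158 in coding transcripts, whereas EIF4A2 had 22.7% of 2126. In EIF4A2, NMD transcripts held 49.9% and retained-intron transcripts 27.4%, and the NMD transcript EIF4A2-207 at 650 stood above the coding transcript EIF4A2-201 at 483. Both genes contain snoRNA genes in RefSeq, 3 within EIF4A1 and 5 within EIF4A2. Across the members, 19 snoRNA or scaRNA genes lay within the spans of 11 factor genes, and 2 of these had values, SNORA48 at 54.3 and SNORD10 at 9.86, both within EIF4A1. The others were not found by symbol among the listed genes. The scaffold EIF4G1 was spread over 30 transcripts, with 25.8% of a total of 83591 in EIF4G1-202 and 10 transcripts needed to reach 90%. EIF4G2 (DAP5), a scaffold that does not bind eIF4E, was 76.1% coding and 16.8% NMD at a total of 14511, and EIF4G3 was 99.4% coding at 6842. The helicase cofactors EIF4B and EIF4H were 93.1% and 97.6% coding at 10402 and 7647. EIF4E, the cap-binding protein, had a total of 324 spread over 7 transcripts, none above EIF4E-204 at 88.3, with 80.8% in coding transcripts. EIF4E2, a cap-binding repressor, was 96.6% coding at 905, and EIF4E3 was at 12.5.

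The inhibitors and partners of eIF4E were all led by coding transcripts. EIF4EBP1 had 70.9% of 1578 in EIF4EBP1-201 and 29.1% in a processed transcript. EIF4EBP2 and EIF4EBP3 were represented by a single coding transcript each, at 1178 and 343. EIF4ENIF1, which carries eIF4E into the nucleus, was 98.7% coding at 704. EIF5A, the hypusine-bearing factor that relieves ribosome stalling, was 100% coding at 9476, with 71.1% in EIF5A-202, and its paralog EIF5A2 had a total of 90.8. EIF5AL1, at 21.0, and EIF2S3B, at 12.6, are close copies of EIF5A and EIF2S3, so their values are uncertain.

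A further 3 genes carry factor names but have other known roles. EIF4A3, the helicase of the exon junction complex, was 87.3% coding and 12.7% retained intron at a total of 3340. EIF1AD was 94.4% coding at 1086, and EEF1E1, a scaffold of the aminoacyl-tRNA synthetase complex, was 100% coding at 347. The lncRNA genes start close to their partners and on the opposite strand. EIF3J-DT starts 224 or 247 bases from EIF3J in RefSeq and had a total of 233, led by EIF3J-DT-207 at 125. EIF2AK3-DT starts 365 bases from the matched start of EIF2AK3 and had a total of 31.6. The RefSeq spans of these 2 genes overlap, since that of EIF2AK3 ends at 88628145 and that of EIF2AK3-DT begins at 88627829.

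In all, 12 of the 61 protein-coding factor genes with at least 2 listed transcripts (19.7%) were led by a transcript that was not protein-coding. The share was 13.1% of 11482 genes over all protein-coding genes of the table, 12.8% of 78 ribosomal protein genes and 17.9% of 28 other genes of the pathway. Differences between these shares were not tested. NMD transcripts led in 7 of the 12 genes, retained-intron transcripts in 4 and a processed transcript in 1. In 5 of the 12 (EEF2K, EIF5, EIF2B5, EIF3M and EIF4A2) the value of the leading transcript was less than 1.5 times the highest coding value of the gene. In EIF2A and EIF2S1 the ratio was 2.14 and 2.42, and in EIF3F, EIF1, EIF2B2, EEF1AKMT2 and EIF3L it ran from 5.44 to 21.9. These are ratios of values that are not divided by transcript length. Coding transcripts held less than 50% of the gene total in 10 of the 12, all but EIF2A and EIF3M. These 10 were 16.4% of the 61 factor genes. The share was 12.8% over all protein-coding genes, 12.8% of the ribosomal protein genes and 21.4% of the other genes of the pathway. These differences were not tested either. The counts by type of leading transcript and by ratio are given for the factor genes alone, without a share over all genes.

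**Figure D2:**
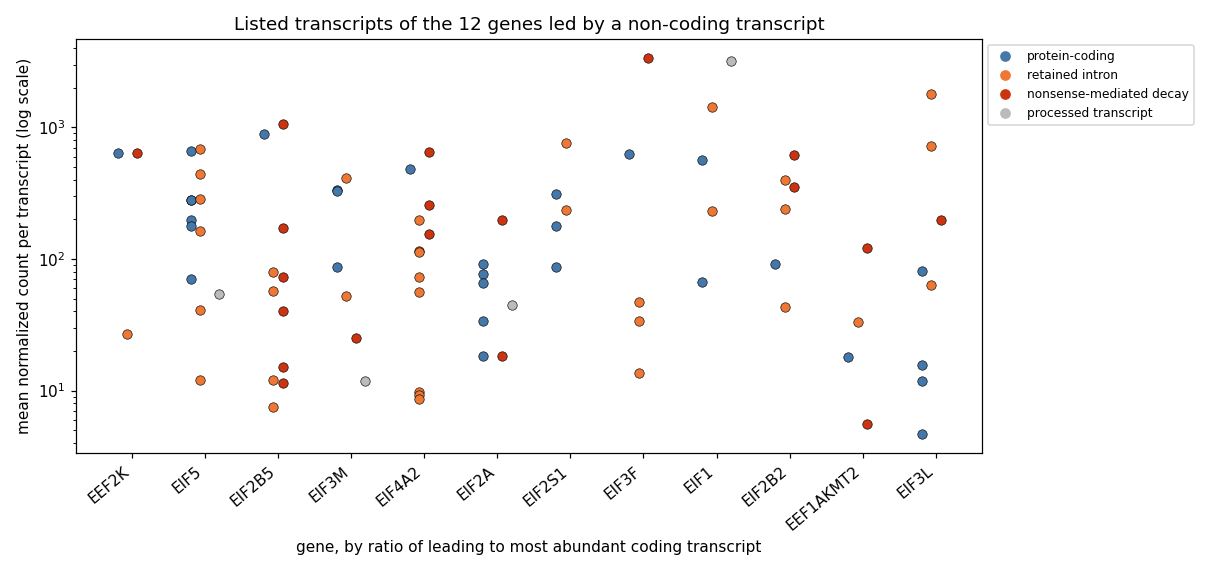
Points are the listed transcripts of the 12 factor genes led by a non-coding transcript, coloured and set side by side by annotated type, against their mean normalized count on a log scale. The leading and the best coding transcript lie at the same height in EEF2K (640 and 637) and far apart in EIF3L (1782 and 81.5).

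The count was also taken by the number of listed transcripts. The leading transcript was non-coding in 2 of 17 factor genes with 2 to 4 listed transcripts (11.8%), in 7 of 33 with 5 to 9 (21.2%) and in 3 of 11 with 10 or more (27.3%). Over all protein-coding genes the shares in these classes were 12.8%, 13.6% and 12.7%. With so few factor genes per class, these are counts and not a tested difference. Retained-intron transcripts were listed for 41 of the 61 factor genes (67.2%), for 46.2% of all protein-coding genes with at least 2 transcripts and for 74.4% of the ribosomal protein genes. NMD transcripts were listed for 26 (42.6%), beside 35.3% of all and 37.2% of the ribosomal protein genes. A transcript had to pass the authors' minimum number of reads to be listed, so genes with higher totals could have more of them listed, and the part of this in the counts was not tested.

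The typical factor gene was close to the typical gene of the table. The leading transcript held a median of 64.2% of the gene total (quartiles 46.0% and 80.5%), beside 59.7% over all protein-coding genes and 79.4% over the ribosomal protein genes. Coding transcripts held a median of 91.0%, beside 90.7% and 97.4%. At least 90% of the total lay in coding transcripts for 32 factor genes (52.5%), beside 51.3% of all genes and 79.5% of the ribosomal protein genes. A single transcript held at least 90% in 7 factor genes (11.5%), beside 10.8% and 37.2%. Factor genes with the TOP-like run were led by a non-coding transcript in 4 of 12 cases (EIF2A, EIF3F, EIF3M and EIF4A2), and those with a matched start but no run in 7 of 36. The median coding share was 91.6% with the run and 92.5% without it. The same counts over all protein-coding genes are not given here. With so few genes, a link between the run and the leading transcript was not tested.

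**Figure D3:**
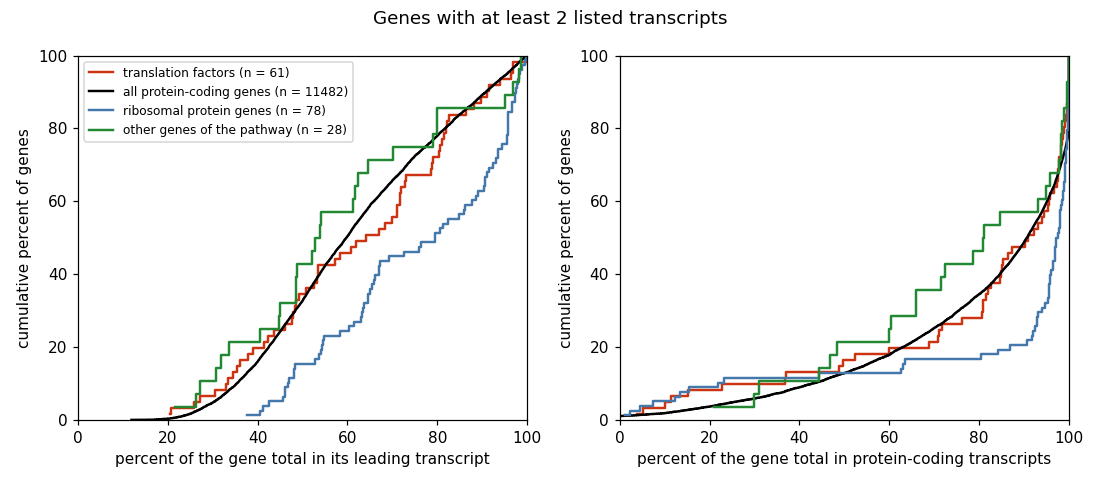
Cumulative curves give the percent of genes with at most the value on the horizontal axis, which is the percent of the gene total in the leading transcript (left) or in protein-coding transcripts (right), for genes with at least 2 listed transcripts. The curve of the 61 translation factors runs near that of the 11482 protein-coding genes, with medians of 64.2% and 59.7% on the left and 91.0% and 90.7% on the right, and the medians of the 78 ribosomal protein genes are 79.4% and 97.4%.

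The other genes of translation control, 30 genes taken from a list of release factors, poly(A)-binding proteins, kinases and modifying enzymes, gave a median coding share of 81.0% over the 28 with at least 2 transcripts. The 5 led by a non-coding transcript were ABCE1, DHPS, DPH5, IMPACT and PAIP1. PAIP1, a partner of the poly(A)-binding protein, had 78.9% of a total of 1013 in the NMD transcript PAIP1-205. DHPS, the enzyme that starts hypusine formation on eIF5A, had 49.9% of 1547 in NMD transcripts. GCN1, the coactivator of GCN2, and MTOR, the kinase upstream of the TOP mRNAs, were 98.2% and 99.7% coding at totals of 19555 and 7052.

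Reads of the factor genes can also fit their pseudogenes. The 43 pseudogene transcripts whose symbols match the family summed to 9924, or 1.69% of the value of the members. Of these, 18 were copies of EEF1A1, with a sum of 6917 (5.74% of EEF1A1) led by EEF1A1P5 at 5205. The ratio was largest for EIF1AX, whose copy EIF1AXP1 at 293 was 47.0% of the gene total of 624. EIF4EP2, a pseudogene of EIF4E, was at 21.1% of its parent, and the copies of EIF2S2 together at 14.0%. How reads were divided between such copies was not tested.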

How the data were processed

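RIP-seq of MDA-MB-231 cells gave 2 IP-YTHDC1 and 2 input libraries. The RNA came from sonicated nuclei and was depleted of rRNA before the libraries were made. Shares by transcript type are therefore not those of whole-cell mRNA. They are also not those of nuclear RNA alone, since each value pools nuclear input with RNA recovered by the anti-flag antibody. The authors mapped reads with STAR (2.7.2b) to a GENCODE v33 transcriptome (GRCh38), estimated reads per transcript with RSEM (1.2.31), dropped transcripts that did not reach 5 reads in 50% or more of the samples, and ran RUVSeq against batch effects and then DESeq2. The signal used here is the mean normalized count per transcript that the authors deposited, a mean over all libraries. The table's other values are the authors' own log2 fold changes of the comparison, their standard errors and p-values, and none was used. No test of IP against input was run, since the column used holds no value per library. Totals per kilobase of coding sequence had been planned and were not made, since no coding lengths were used. Depth per library is unknown.

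Values were summed per gene identifier, and shares by transcript type and by transcript were computed with python 3.11.15, numpy 2.4.6 and pandas 2.3.3. Figures were drawn with matplotlib 3.10.9. The gene totals and shares were checked on genes given known values, and the choice by symbol on made-up symbols. The search of starts was not part of these checks. Start sequences, spans and snoRNA positions came from RefSeq (GRCh38.p14). Members, roles, gene lists and alternatives were chosen with earlier results of these data known. Every member gene is named by role, the rule for named genes. It also takes the 5 non-coding transcripts with the largest share of their gene among genes with a total of at least 100, and each of these is in the text. The search of starts and the leaving out of near-identical copies, of EEF2K and of EEF1A1 among the eEF1 genes were added after the data were seen.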

Additional observations from a re-analysis of the deposited data

How the results depend on the processing

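The values are means over IP and input libraries without replicate spread, so the alternatives show how the choice of transcripts and genes moves them and not how repeatable they are. A value was taken as moved when it changed by more than 1.5 times. The median gene total, 1784 over all 70 genes, moved to 1052 with protein-coding transcripts alone and to 2879 without kinases, methyltransferases and eIF4E-binding proteins. The shares by transcript type, the number of genes led by a coding transcript, the share of the leading transcript and the family's share of all values stayed within 1.5 times in every alternative run for them, which were minimum values of 10 and 100, leaving out the lncRNA genes, EEF1A1 or the regulators, and coding transcripts alone. With a minimum of 100, 36 genes were led by a coding transcript, against 49 of 61 as reported. That minimum keeps 225 of the 450 transcripts, so fewer genes keep at least 2 of them. The 2 counts are therefore not out of the same number of genes, and do not show whether the share held. Without 5 genes with near-identical copies, chosen after seeing the data, the number led by a coding transcript was 47. Allowing the pyrimidine run to begin within 2 bases of the start, also chosen after seeing the data, gave 17 genes in place of 13, or 30.9% of matched factor genes in place of 23.6%, and raised the share of all matched protein-coding genes more, from 7.19% to 16.2%. The comparison of IP and input with its alternatives, and the totals per kilobase, were not run. No paired analysis was possible because the value used is one mean over all libraries.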
